A study of Mus musculus with 19 samples.

Results

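CD4+ T cells of axillary lymph nodes were compared between mice immunised with a heart extract and mice given the adjuvant alone. The comparison used 7 of the 19 libraries in the series, 3 titled AxLN_HE and 4 titled AxLN_Adj, and the members were taken from those titles alone. All mice were Balb/c wild type animals, and all nodes were taken on day 7 after a subcutaneous injection. The heart extract group received 1 mg of a protein extract of whole mouse hearts, homogenised in PBS and emulsified in Titermax Gold, a squalene-based water-in-oil adjuvant. The adjuvant group received 200 µl of Titermax Gold without antigen. The labels give the volume for immunised animals as 200 or 600 µl without assigning either to a sample, so antigen and adjuvant volume cannot be told apart. They give no age and do not tie a library to 1 animal, so a p-value here reflects only how much these libraries varied, which may be technical. Each library was made from total RNA of 500000 cells sorted as CD4+ and TCRβ+ at a stated purity above 98%. Because T cell receptor beta transcripts were the only ones amplified, no marker gene could be used to check the cell type.

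A T cell receptor beta chain is assembled from a V segment (TRBV), a D segment (TRBD) and a J segment (TRBJ), with bases added or lost at the joints. The joint encodes the third complementarity-determining region (CDR3), the loop that mainly contacts the peptide held by an MHC molecule, whereas the V segment encodes the loops that mainly contact the MHC molecule itself. Naive CD4+ T cells that meet their peptide in a draining node divide, so a responding clone can take a larger share of the receptor transcripts, and different clones can carry the same CDR3 amino acid sequence. Heart extract holds many self proteins, among them cardiac myosin, a known autoantigen of the heart in this strain.

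The comparison asked whether immunisation with heart extract enriched receptors in the node draining the injection site beyond what the adjuvant did alone. The 7 libraries held between 7712663 and 8840487 reads. Distinct CDR3s numbered 53871, 88872, 45229 and 93022 in adjuvant nodes 1 to 4 and 52706, 87506 and 38437 in heart extract nodes 1 to 3. Both groups thus held libraries of 87506 or more CDR3s and libraries of 53871 or fewer, at similar read totals. No CDR3 entry was listed with fewer than 2 reads. PCR reads without molecular identifiers are not independent molecules, so intervals and floors below cover counting error only.

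The sequences on which most of the CDR3 results turn are given first, as the amino acid strings of the deposited tables, which omit the cysteine that opens the loop and the phenylalanine that closes it. The first set shows the CDR3s listed in all 3 heart extract libraries and in no adjuvant library, the 10 with the highest lowest share, each with its main segments.
H1, TRBV19 with TRBJ2-2: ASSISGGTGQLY
H2, TRBV19 with TRBJ1-5: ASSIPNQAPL
H3, TRBV19 with TRBJ1-4: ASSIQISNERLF
H4, TRBV14 with TRBJ2-3: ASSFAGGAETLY
H5, TRBV14 with TRBJ1-4: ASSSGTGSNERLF
H6, TRBV19 with TRBJ2-3: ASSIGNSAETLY
H7, TRBV19 with TRBJ1-2: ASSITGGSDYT
H8, TRBV19 with TRBJ1-2: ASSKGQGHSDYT
H9, TRBV2 with TRBJ2-1: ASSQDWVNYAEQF
H10, TRBV5 with TRBJ2-5: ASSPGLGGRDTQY

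The second set is the reverse, the CDR3s listed in all 4 adjuvant libraries and in no heart extract library, chosen in the same way.
A1, TRBV1 with TRBJ1-4: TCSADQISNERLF
A2, TRBV5 with TRBJ1-4: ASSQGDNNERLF
A3, TRBV19 with TRBJ1-1: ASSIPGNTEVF
A4, TRBV14 with TRBJ2-2: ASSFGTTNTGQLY
A5, TRBV19 with TRBJ1-1: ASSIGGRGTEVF
A6, TRBV5 with TRBJ1-4: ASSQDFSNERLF
A7, TRBV5 with TRBJ2-2: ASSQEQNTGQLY
A8, TRBV20 with TRBJ1-2: GARSGNSDYT
A9, TRBV5 with TRBJ2-1: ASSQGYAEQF
A10, TRBV14 with TRBJ2-5: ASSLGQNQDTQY

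The third set holds the 5 CDR3s with the highest mean share among those listed in all 7 libraries.
P1, TRBV19 with TRBJ1-1: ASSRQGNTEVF
P2, TRBV5 with TRBJ1-4: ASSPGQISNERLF
P3, TRBV5 with TRBJ1-3: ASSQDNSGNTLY
P4, TRBV14 with TRBJ1-1: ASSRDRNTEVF
P5, TRBV5 with TRBJ1-4: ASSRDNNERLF

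The start of such a string comes mostly from the V segment and its end from the J segment. ASSI at the start is frequent with TRBV19, where isoleucine stood at the fourth listed residue in 33.0% to 37.0% of a library's TRBV19 reads and in 0.267% to 0.400% of its other reads. ASSQ is the common start with TRBV5, with glutamine there in 70.1% to 72.3% of TRBV5 reads and 7.52% to 8.23% of other reads. Among the strings above, SNERLF, NTEVF and NYAEQF are ends found with TRBJ1-4, TRBJ1-1 and TRBJ2-1.

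After heart extract, TRBV19 took a larger share of reads and TRBV5 a smaller one. TRBV19 encodes the chain known as Vβ6 and was the most used segment in all 3 heart extract libraries and in adjuvant nodes 2 and 4. It held 21.2%, 23.4%, 21.1% and 21.9% of reads in adjuvant nodes 1 to 4 and 23.3%, 24.7% and 25.3% in heart extract nodes 1 to 3. Adjuvant node 2 stood above heart extract node 1, so the groups overlapped. The means were 24.4% ± 1.02 after heart extract (SD, n = 3) and 21.9% ± 1.05 after adjuvant (n = 4). The log2 fold change was 0.16, with an SE of 0.0441 and an adjusted p of 0.0337 over 22 segments by the edgeR quasi-likelihood test.

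TRBV5 encodes Vβ1. It held 21.6%, 21.3%, 21.3% and 21.7% of reads in the adjuvant nodes and 19.99%, 19.8% and 17.8% in the heart extract nodes, with no overlap between the groups. The log2 fold change was -0.16 (SE 0.0390, adjusted p 0.0232). These were the 2 of 22 TRBV segments called (9.09%), and 3 stood under 0.05 before adjustment. The third was TRBV20, named after its values were seen, with 3.59% ± 0.0498 after heart extract and 3.86% ± 0.107 after adjuvant (log2 -0.10, adjusted p 0.306). TRBV5 and TRBV20 were also the 2 segments whose heart extract libraries all lay below the adjuvant libraries (9.09% of 22), and 0 segments (0%) lay wholly above. The segment shares of a library sum to a fixed total, so the TRBV19 and TRBV5 calls are not independent.

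Neither segment passed with TMM factors (adjusted p 0.215 for TRBV19 and 0.142 for TRBV5), with DESeq2 (0.0645 and 0.119) or in a fit of the 7 libraries alone (0.0522 for both). When distinct CDR3 entries were counted in place of reads, the log2 fold changes were 0.09 for TRBV19 and -0.04 for TRBV5 (adjusted p 0.936), and leaving out any of adjuvant nodes 1 and 4 and heart extract node 3 also ended both calls, with adjusted p of 0.0667 to 0.116 for TRBV5 and 0.0776 to 0.189 for TRBV19. The TRBV19 call was also lost without adjuvant node 3 (adjusted p 0.116) and without heart extract node 2 (0.135), so it held in 2 of the 7 fits that left out a library, and TRBV5 held in 4.

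The other 4 of the 6 most used segments did not pass. TRBV14 held 13.4% ± 0.736 of reads after heart extract and 12.9% ± 1.24 after adjuvant (log2 0.06, adjusted p 0.641), and its adjuvant libraries ran from 11.5% to 14.0%. TRBV4 held 9.29% ± 0.211 and 9.98% ± 0.536 (log2 -0.10, adjusted p 0.355). TRBV1 held 8.21% ± 0.238 and 7.92% ± 0.274, and TRBV2 5.05% ± 0.188 and 4.92% ± 0.264, with log2 fold changes of 0.05 and 0.04 (adjusted p 0.641 for both). The groups overlapped for each of these 4 segments. Over all 22 segments the median log2 fold change was -0.0066, and 10 were positive.

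**Figure D1:**
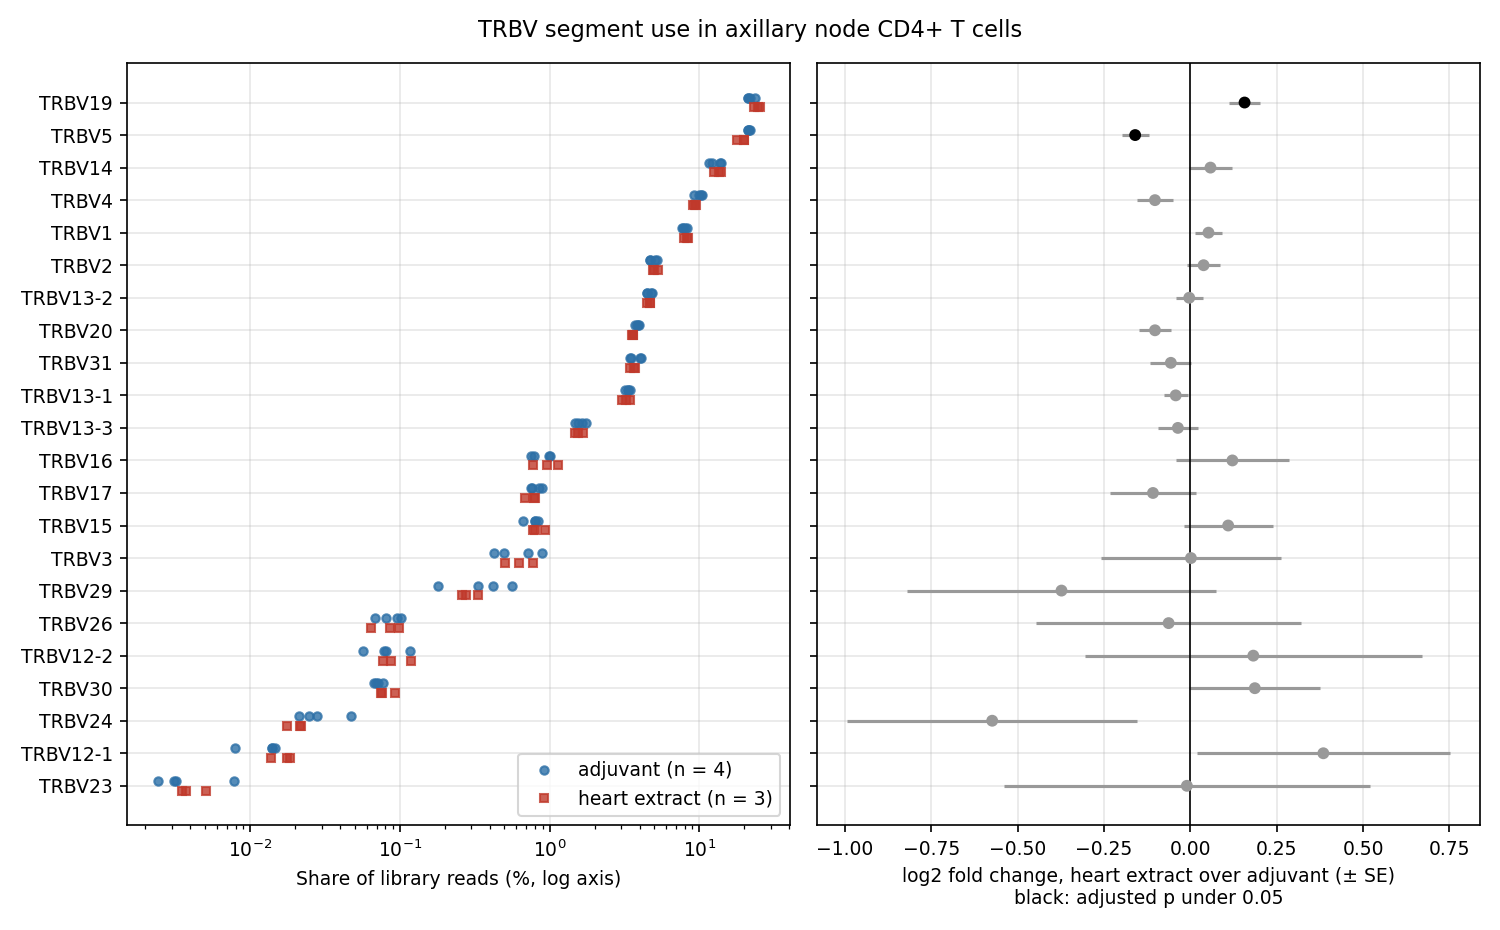
Left, each library's share of reads (%, log axis) for the 22 TRBV segments, with adjuvant libraries as blue circles (n = 4) and heart extract libraries as red squares (n = 3). Right, the log2 fold change of heart extract over adjuvant with its SE from the edgeR fit; TRBV19 at 0.16 and TRBV5 at -0.16 are black because their adjusted p was under 0.05, and the rarest segments have the widest errors.

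The other 9 nodes of the series, from mice that had not received heart extract, give the range of both segments elsewhere. TRBV19 held 23.1% to 24.4% of reads in the 2 axillary nodes after myosin in adjuvant, 22.3% to 24.8% in the 4 mediastinal nodes after sham surgery and 23.3% to 24.5% in the 3 after infarction. TRBV5 held 19.97% to 20.1%, 19.0% to 20.4% and 19.0% to 20.3% there. All 9 nodes thus lay below the 4 adjuvant nodes in TRBV5, as did the heart extract nodes. The myosin comparison shares its adjuvant libraries with the heart extract comparison, and its log2 fold changes were 0.12 for TRBV19 and -0.10 for TRBV5 (adjusted p 0.477 for both).

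TRBV19 had a higher mean share after heart extract among the most abundant receptors, while its means in the rarer classes were not higher. This description was added after the values were seen and was not tested. Among the 1000 most abundant entries of a library, an entry being a CDR3 with its TRBV and TRBJ segment, TRBV19 held 36.0%, 42.2%, 40.2% and 35.9% of the class's reads in adjuvant nodes 1 to 4. It held 41.7% to 47.3% in the heart extract nodes, with means of 38.6% ± 3.11 and 43.9% ± 3.02, and adjuvant node 2 stood above the lowest of them. In ranks 1001 to 10000 the means were 27.9% ± 8.23 after adjuvant and 27.2% ± 8.76 after heart extract, and among all rarer entries 5.97% ± 3.46 and 4.67% ± 3.96. In both lower classes the heart extract libraries spanned much the same range as the adjuvant libraries. In ranks 1001 to 10000, adjuvant nodes 2 and 4 stood at 35.4% and 34.5%, and heart extract node 2 at 36.8%. These libraries held the most CDR3s. Adjuvant nodes 1 and 3 stood at 22.6% and 19.2%, and heart extract nodes 1 and 3 at 25.3% and 19.6%. The means of this class thus depend on how many CDR3-rich libraries a group held.

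TRBV5 was lower after heart extract in each class mean. Among the 1000 most abundant entries it held 12.8% ± 3.04 of reads after adjuvant and 7.84% ± 1.96 after heart extract, with ranges of 9.65% to 16.7% and 6.03% to 9.92%. In ranks 1001 to 10000 the means were 26.8% ± 3.65 and 25.6% ± 3.13, and among rarer entries 16.3% ± 6.25 and 12.9% ± 7.70. TRBV19 entries made up 11.01% to 12.7% of a library's entries, and each carried 144 to 376 reads on average, against 72.4 to 171 over all segments. TRBV5 entries carried 107 to 186 reads.

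**Figure D2:**
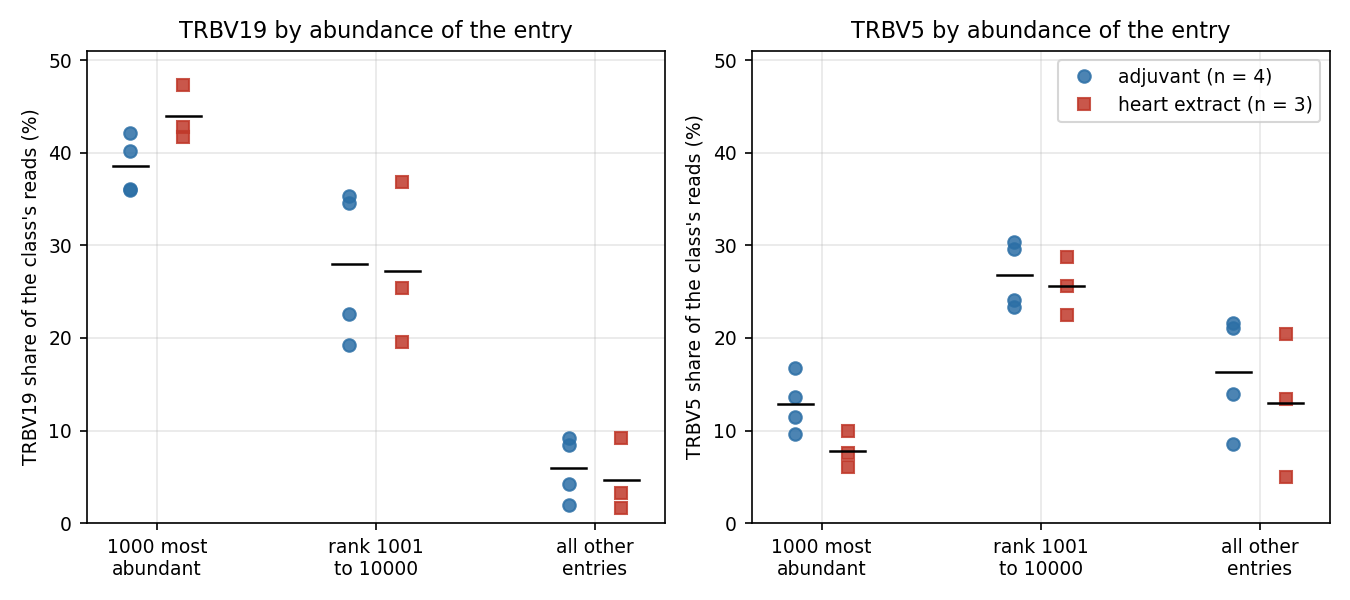
Share of each abundance class's reads (%) held by TRBV19 (left) and TRBV5 (right) in adjuvant (blue circles, n = 4) and heart extract libraries (red squares, n = 3), with horizontal bars at the group means. Classes are the 1000 most abundant entries of a library, ranks 1001 to 10000 and all others; TRBV19 means stood at 38.6% and 43.9% in the first class and at 27.9% and 27.2% in the second.

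No TRBJ segment was called (0 of 11, 0%). By edgeR 0 stood under 0.05 before adjustment, and by DESeq2 0 passed. TRBJ2-5 held 9.70% ± 0.443 of reads after heart extract and 9.18% ± 0.553 after adjuvant (log2 0.08, adjusted p 0.578), and TRBJ2-4 held 8.22% ± 0.368 and 7.84% ± 0.281 (log2 0.07, adjusted p 0.578). TRBJ1-1, the most used of these, held 18.1%, 15.5%, 15.8% and 15.5% of reads in the adjuvant nodes and 15.3%, 15.8% and 14.0% in the heart extract nodes (log2 -0.11, adjusted p 0.653). TRBJ1-5 held 2.59% ± 0.186 and 2.44% ± 0.147 (log2 0.08, adjusted p 0.791). The groups overlapped for each of these 4 segments.

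Reads of each TRBV segment were then split by the TRBJ segment joined to it. TRBV19 had a positive log2 fold change with all 11 TRBJ segments, from 0.01 to 0.36 with a median of 0.17, and 4 of the 11 had an unadjusted p under 0.05. TRBV5 had a negative one with all 11, from -0.26 to -0.04 with a median of -0.15, and 5 had an unadjusted p under 0.05. Over all 228 pairs tested, 116 were positive and 112 negative, the median was 0.002, and 19 had an unadjusted p under 0.05. The 11 pairs of a segment share that segment's total and are not independent. By edgeR 0 of 228 pairs were called (0%).

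The 4 pairs with the smallest p each had an adjusted p of 0.323. TRBV19 with TRBJ2-4 held 1.54%, 1.85%, 1.61% and 1.61% of reads in the adjuvant nodes and 2.15%, 1.83% and 2.35% in the heart extract nodes, a log2 fold change of 0.35 (SE 0.0927), with heart extract node 2 just below adjuvant node 2. TRBV5 with TRBJ2-3 held 2.56%, 2.65%, 2.59% and 2.71%, and 2.25%, 2.17% and 2.14%, a log2 fold change of -0.26 (SE 0.0736) without overlap. These were the 2 pairs that DESeq2 called (0.877% of 228), with adjusted p of 0.0145 and 0.0441, while it gave 137 pairs no adjusted p.

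The other 2 pairs were rare and did not overlap between groups. TRBV2 with TRBJ2-2 held 0.166% to 0.194% of reads after adjuvant and 0.213% to 0.237% after heart extract (log2 0.33, SE 0.0990). TRBV20 with TRBJ1-1 held 0.516% to 0.644% and 0.383% to 0.509% (log2 -0.37, SE 0.118). In all, 6 pairs lay wholly higher after heart extract (2.63%) and 12 wholly lower (5.26%), of which TRBV5 accounted for 5.

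**Figure D3:**
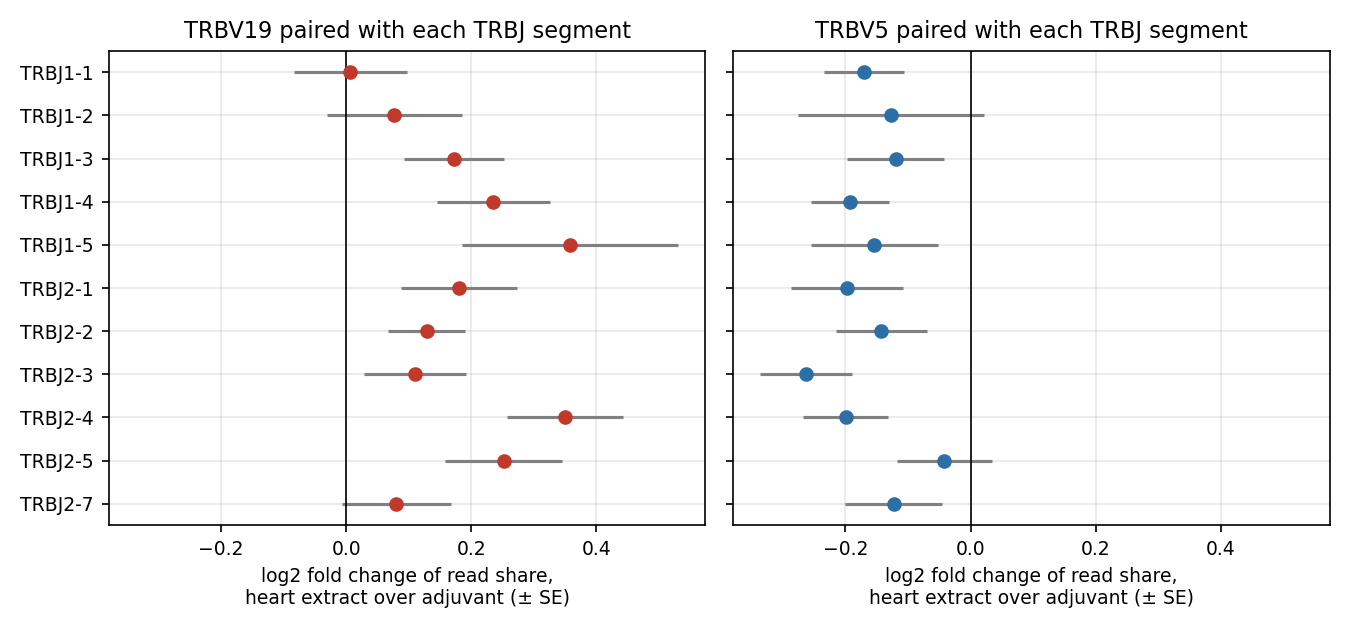
Log2 fold change of read share, heart extract over adjuvant, with its SE (edgeR, 16 node libraries), for TRBV19 (left) and TRBV5 (right) joined to each of 11 TRBJ segments. All TRBV19 points lie right of 0 (0.01 to 0.36) and all TRBV5 points left of it (-0.26 to -0.04), and none passed after adjustment.

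At the level of single CDR3s the repertoires were mostly private. The 7 libraries listed 370269 distinct CDR3s, of which 316104 (85.4%) were in a single library, and 37427 (10.1%) were in both groups. CDR3s listed in 1 library carried 50.4% to 54.2% of that library's reads, and the 483 CDR3s in all 7 libraries carried 2.82% to 4.14%. A CDR3 entered the test with a read in at least 3 of the 16 node libraries and at least 20 reads in all, which 92165 of the 370269 did (24.9%). Of those, 32972 had reads in both groups, 19639 after heart extract only and 39554 after adjuvant only. The adjuvant group had 1 library more.

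EdgeR called 0 of 121771 CDR3s (0%), the smallest adjusted p was 0.258 and 18224 stood under 0.05 before adjustment. That number depended on the fit. With only the 7 libraries in the edgeR fit, 2038 of 92165 stood under 0.05 before adjustment and 0 were called. The cause of the difference was not tested. Of the 121771, 29606 had no read in the 7 libraries and entered through the other nodes, so shares of 121771 include them. DESeq2 called 12909 (10.6% of 121771), 4032 higher and 8877 lower after heart extract, and gave 60000 no adjusted p. The libraries of the groups did not overlap for 298 tested CDR3s higher after heart extract (0.245%) and 327 lower (0.269%). Within the 7 libraries, the 5 CDR3s with the smallest p were each read mainly in 1 heart extract library. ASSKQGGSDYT was read 10980 times in heart extract node 3, and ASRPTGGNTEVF 4803 times in node 1, each with 0 reads in the other 6 libraries. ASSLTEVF was read 4450 and 171 times in nodes 1 and 2, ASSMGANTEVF 748 and 3321 times in nodes 2 and 3, and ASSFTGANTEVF 5, 64 and 4251 in nodes 1 to 3, with 0 in the adjuvant nodes. Each of the 5 had an edgeR adjusted p of 0.258. Nodes outside the 7 libraries held some of them too, and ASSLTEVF was listed in all 4 sham nodes and all 3 nodes after infarction, with its highest count, 7820 reads, in sham node 2.

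The most abundant CDR3 of each library held between 0.0779% and 0.159% of its reads. It was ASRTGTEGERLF in adjuvant node 1 (10271 reads, 0.133%, 95% Wilson interval 0.131% to 0.136%), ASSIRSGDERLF in node 2 (7174 reads, 0.0811%), a CDR3 of TRBV14 with TRBJ1-3 in node 3 (10189 reads, 0.125%) and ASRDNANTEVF in node 4 (8906 reads, 0.106%). The first 3 of these were listed in no other of the 7 libraries, while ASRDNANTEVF was in 6 of the 7, with 10 segment pairs. In the heart extract nodes it was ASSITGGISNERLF in node 1 (6115 reads, 0.0779%), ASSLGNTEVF in node 2 (9617 reads, 0.110%) and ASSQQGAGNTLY in node 3 (12397 reads, 0.159%, interval 0.157% to 0.162%). Each of these 3 also had reads in an adjuvant node, among them 214 reads of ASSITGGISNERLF in adjuvant node 2 and 426 of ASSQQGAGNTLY there. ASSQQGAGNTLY had a further 2007 reads in heart extract node 2.

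CDR3s present in every heart extract node and listed in no adjuvant node numbered 137, and the reverse set numbered 174. These were 0.037% and 0.047% of the 370269 CDR3s listed in the 7 libraries. The pattern chose both sets, so their values are a description. The 137 together held 0.223% to 0.502% of a heart extract library's reads, and the 174 held 0.295% to 0.700% of an adjuvant library's reads. Their median lowest count was 4 and 13 reads. TRBV5 was the main segment of 33 of the 137 and 44 of the 174, and TRBV19 of 24 and 25.

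The best represented of the 137 had 179 reads or more in each heart extract library. H1, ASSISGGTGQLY, had 543, 511 and 646 reads in heart extract nodes 1 to 3, the most even of the set. H2, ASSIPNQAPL, had 364, 1030 and 1103 reads, and H3, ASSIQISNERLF, 682, 374 and 536. Against a floor of 3 reads in each adjuvant library, the mean share of the 10 was between at least 112-fold (H6) and at least 281-fold (H2) higher. The choice asked for absence after adjuvant and a high share after heart extract, so these folds follow from it and test nothing. The edgeR adjusted p of H1 to H10 was 0.258. TRBV19 was the main segment of 6 of the 10, against 24 of all 137, and 5 of these 6 begin with ASSI. In the heart extract nodes TRBV19 made up 42.6% to 49.0% of the 1000 most abundant entries. It made up 12.4% to 34.9% of those in ranks 1001 to 10000. Whether 6 of 10 differs from these shares was not tested.

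H4, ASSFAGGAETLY, had 458, 275 and 973 reads, and H5, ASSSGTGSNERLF, 255, 1551 and 230. H7, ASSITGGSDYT, had 317, 620 and 222 reads and differs in its last letters from the most abundant CDR3 of heart extract node 1, with which it shares ASSITGG. H8, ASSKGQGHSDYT, had 931, 617 and 221 reads and was listed in none of the other 12 libraries of the series, hearts included. H9, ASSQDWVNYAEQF, had 441, 233 and 918 reads, and H10, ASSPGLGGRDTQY, 179, 246 and 1101. H4, H5, H7, H8, H9 and H10 each had most of their reads in 1 library, and H1, H2, H3 and H6 did not.

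H6, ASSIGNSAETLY, was read 397, 257 and 324 times in the heart extract nodes. It also had 56661 reads in infarcted heart 1, 2.33% of that library (95% Wilson interval 2.32% to 2.35%), where it ranked 3 of 2898 CDR3s. It was in all 3 mediastinal nodes after infarction, with 361, 126 and 37 reads, in 2 of 4 after sham surgery, with 259 and 56, and in neither myosin node. Of the 137, 6 were listed in an infarcted heart (4.38%), and of the 174 in the reverse set 7 were (4.02%). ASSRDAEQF of the first set reached 18562 reads in heart 3, and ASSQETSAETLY of the reverse set reached 18366 there. In the nodes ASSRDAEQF was near the floor, with 3, 23 and 44 reads in heart extract nodes 1 to 3. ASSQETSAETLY had 1274, 106, 497 and 130 reads in adjuvant nodes 1 to 4. These 3 CDR3s were singled out after their values were seen.

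Absence from adjuvant nodes did not mean absence elsewhere. Of the 137 CDR3s, 107 (78.1%) were in a sham mediastinal node, 116 (84.7%) in a mediastinal node after infarction and 77 (56.2%) in a myosin node, and 8 were in none of these 9 nodes. Of the 174 of the reverse set, 164 (94.3%), 170 (97.7%) and 141 (81%) were in those nodes, and 0 were in none. H3 was read 733 and 1264 times in the 2 myosin nodes. The reverse set needed 4 libraries to list a CDR3 and the first set needed 3, so the sets are not matched.

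Among the reverse set, A1, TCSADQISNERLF, had 390, 657, 1900 and 542 reads in adjuvant nodes 1 to 4. A5, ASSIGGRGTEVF, had 3969, 268, 747 and 461, most of them in adjuvant node 1, and A3, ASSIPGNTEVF, had 426, 633, 2179 and 266. A8, GARSGNSDYT, was the most even, with 222, 205, 179 and 193 reads. Against a floor of 3 reads in each heart extract library, the mean share of A1 to A10 was at least 65.3-fold (A8) to at least 466-fold (A5) lower. These folds too follow from the choice. TRBV5 was the main segment of 4 of these 10 and TRBV19 of 2, against 44 and 25 of all 174. A1 and A3 were also in all 3 nodes after infarction, and A3 in all 4 sham nodes.

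Those CDR3s common to all 7 libraries with the highest mean shares were read deeply in every library. P3, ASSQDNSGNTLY, had 3480, 2398, 2415 and 2314 reads in the adjuvant nodes and 1795, 1401 and 2715 in the heart extract nodes. P1, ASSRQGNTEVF, had 4211, 1317, 3021 and 2565, and 899, 3592 and 2318. P4, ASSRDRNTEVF, was the most uneven, with 404, 7964 and 1300 reads in the heart extract nodes. The groups overlapped for each of the 3. Of the 483, 316 were also in all 9 other nodes, and TRBV5 was the main segment of 167 and TRBV19 of 85. P1 was encoded with 11 different segment pairs, P2 with 12 and P3 with 4.

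**Figure D4:**
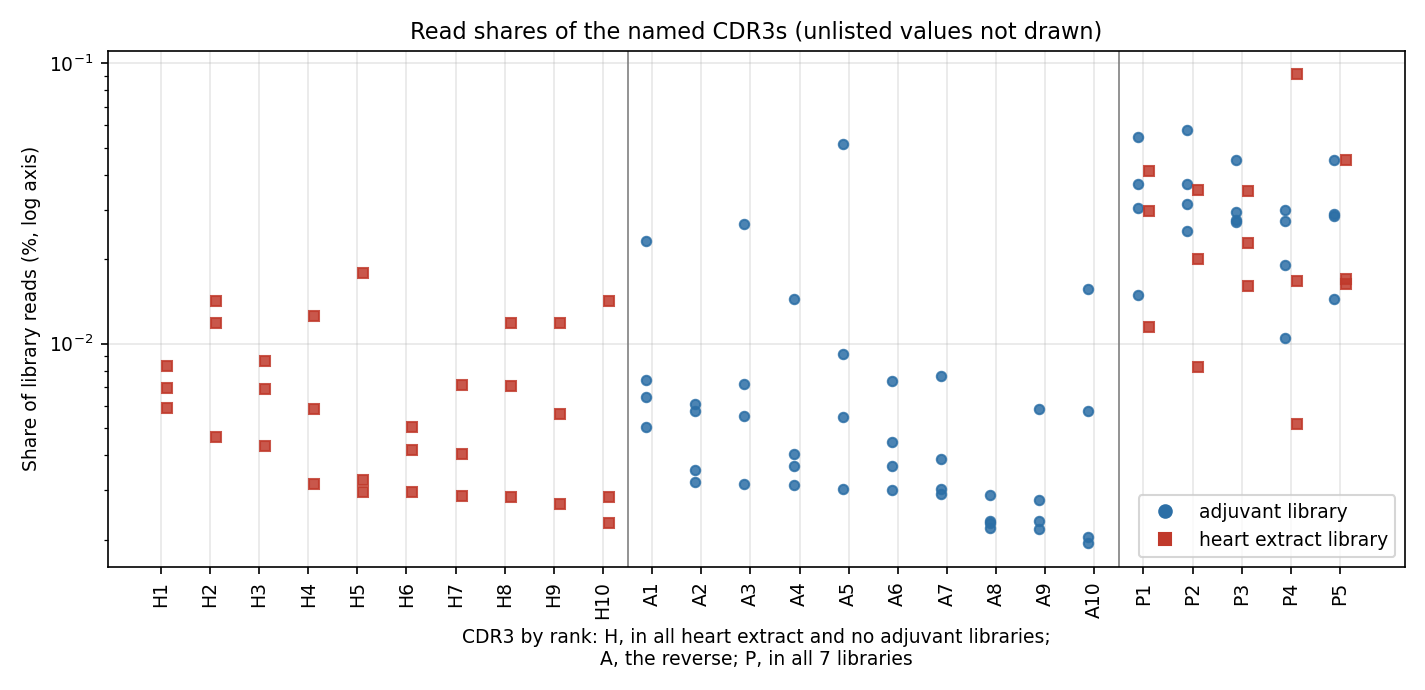
Share of library reads (%, log axis) of the CDR3s H1 to H10, A1 to A10 and P1 to P5 in adjuvant libraries (blue circles) and heart extract libraries (red squares), with unlisted values not drawn. The H and A sets were chosen for being listed in a single group, so the lack of points from the other group is the choice itself; in the P set both groups are interleaved.

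Different CDR3s can share a short motif, so the distinct CDR3s holding each 3-residue string in the centre of the loop, without the first 3 and last 3 listed residues, were counted. EdgeR called 0 of 3417 strings (0%), 208 stood under 0.05 before adjustment, and by DESeq2 0 passed. AVL, of hydrophobic residues, had the smallest p. It was in 5, 7, 4 and 8 CDR3s of adjuvant nodes 1 to 4 and in 11, 16 and 21 CDR3s of heart extract nodes 1 to 3, without overlap (log2 1.71, SE 0.405, adjusted p 0.305). Heart extract node 3 had the most such CDR3s and the fewest CDR3s in all.

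NYA, part of the TRBJ2-1 end, followed. It was in 2.96% ± 0.0508 of CDR3s after adjuvant and 2.63% ± 0.102 after heart extract (log2 -0.17, SE 0.0446). PTQ was in 10, 8, 8 and 14 CDR3s after adjuvant and 2, 3 and 0 after heart extract, and LPT in 17, 16, 16 and 33 against 4, 12 and 4, with log2 fold changes of -2.33 and -1.40. These 3 had an adjusted p of 0.332, and none overlapped between groups as a share of CDR3s. In all, 96 strings lay wholly higher after heart extract (2.81%) and 104 wholly lower (3.04%).
Leaving out heart extract node 2 gave 2 calls, AVL (log2 2.06, adjusted p 0.0347) and GRR (log2 0.63, adjusted p 0.0314), and counting reads in place of CDR3s gave 2 others, LPT (log2 -3.15) and FAR (log2 -6.95), each with an adjusted p of 0.0287 by edgeR. GRR was in 98, 219, 129 and 195 CDR3s after adjuvant and 189, 210 and 135 after heart extract, and FAR in 6, 8, 4 and 7 against 3, 2 and 1.

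The remaining measures were computed per library at 7712663 drawn reads and tested by exact two-sided permutation over the 35 ways of assigning the 2 labels, where 0.0286 is the smallest p possible. None passed after adjustment within its family. In all, 3 residues of the loop centre reached the smallest p. Glutamic acid was 5.85% ± 0.0383 of centre residues after heart extract and 5.99% ± 0.0377 after adjuvant, proline 3.46% ± 0.0671 and 3.33% ± 0.0703, and glutamine 8.59% ± 0.0861 and 8.77% ± 0.0440 (exact permutation p 0.0286 and adjusted p 0.190 for each). Isoleucine was 2.29% ± 0.0542 and 2.09% ± 0.0899, and serine 7.23% ± 0.0963 and 7.33% ± 0.0348 (exact permutation p 0.0571 and adjusted p 0.229 for each). With each distinct CDR3 counted once in place of reads, none of the 5 stood at the smallest p. The differences were then -0.0823 percentage points for glutamic acid, 0.108 for proline, -0.0986 for glutamine, 0.0581 for isoleucine and -0.0229 for serine (exact permutation p 0.229, 0.286, 0.257, 0.229 and 0.743).

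Isoleucine and glutamine at the fourth listed residue are the V-encoded ones of TRBV19 and TRBV5 described above. With the centre taken without the first 4 residues, an alternative added after seeing the data, the isoleucine difference was 0.00158 percentage points (exact permutation p 0.886) and the glutamine difference was 0.109 in the opposite direction. There the glutamic acid difference was -0.138 percentage points (exact permutation p 0.0286), the proline difference 0.0754 (p 0.171) and the serine difference -0.133 (p 0.2), each with an adjusted p of 0.444.

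Net charge of the centre averaged -0.393, -0.377, -0.382 and -0.402 in the adjuvant nodes and -0.373, -0.351 and -0.369 in the heart extract nodes, with means of -0.389 ± 0.0113 and -0.364 ± 0.0114 charges per CDR3. The groups did not overlap (exact permutation p 0.0571, adjusted p 0.400). Mean length was 12.1 residues in both groups. A pair of hydrophobic residues at positions 6 and 7, counting the cysteine as position 1, a feature described in self-reactive receptors, was in 0.649% ± 0.0612 of reads after heart extract and 0.627% ± 0.101 after adjuvant (exact permutation p 0.829).

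Of the segment lists, the TRBJ1 cluster held 44.5% ± 2.25 of reads after heart extract and 45.7% ± 1.94 after adjuvant (exact permutation p 0.514), and the TRBV13 family, known as Vβ8, 9.42% ± 0.400 and 9.57% ± 0.372 (p 0.6). The segments TRBV26, TRBV12-1, TRBV12-2, TRBV16 and TRBV15, whose T cells are deleted in Balb/c mice by superantigens of endogenous retroviruses, held 1.99% ± 0.277 and 1.84% ± 0.205 (p 0.486). Each of the 3 lists had an adjusted p of 0.6. Motifs of the TRBD segments, such as GQG and GTGG, had exact permutation p between 0.257 and 0.657.

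The spread of each diversity measure within the groups was larger than the difference between the group means. Distinct CDR3s numbered 59474 ± 25117 after heart extract and 70140 ± 24122 after adjuvant (exact permutation p 0.571), and normalised Shannon entropy, which is 1 when all CDR3s are equally abundant, was 0.896 ± 0.0194 and 0.903 ± 0.0196 (p 0.657). The 100 most abundant CDR3s held 4.32% ± 1.19 and 4.15% ± 1.33 of reads (p 0.829), and the 1000 most abundant 22.004% ± 7.33 and 19.1% ± 6.25 (p 0.6). The share of the 1000 most abundant CDR3s with another of them a single substitution away was 31.9% ± 10.4 and 37.2% ± 9.66 (p 0.571).

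Overlap between libraries of the same treatment was not called higher than overlap between treatments. The mean Morisita-Horn overlap of CDR3 read shares, which is 0 without shared CDR3s and 1 for equal repertoires, was 0.127 for pairs within a group and 0.122 for pairs between groups (exact one-sided permutation p 0.200). Pairs of heart extract libraries had a mean of 0.1000 and pairs of adjuvant libraries 0.141. The highest overlaps joined adjuvant nodes 2 and 4 and heart extract node 2, the 3 libraries with the most CDR3s, and the lowest involved heart extract node 3, with the fewest.

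CDR3s of the other groups held a slightly lower mean share of heart extract reads than of adjuvant reads, and no difference passed. Of a heart extract library's reads, 38.1% ± 0.443 had a CDR3 listed in a myosin node, against 38.9% ± 0.522 of an adjuvant library's reads, and the heart extract libraries all lay lower (exact permutation p 0.0571, adjusted p 0.229). The shares listed in a node after infarction were 55.9% ± 0.865 and 56.5% ± 0.698 (p 0.371), and in a sham node 52.01% ± 0.914 and 53.1% ± 0.598 (p 0.114). The shares listed in an infarcted heart were 1.97% ± 0.168 and 2.17% ± 0.0843 (exact permutation p 0.171, adjusted p 0.229).

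**Figure D5:**
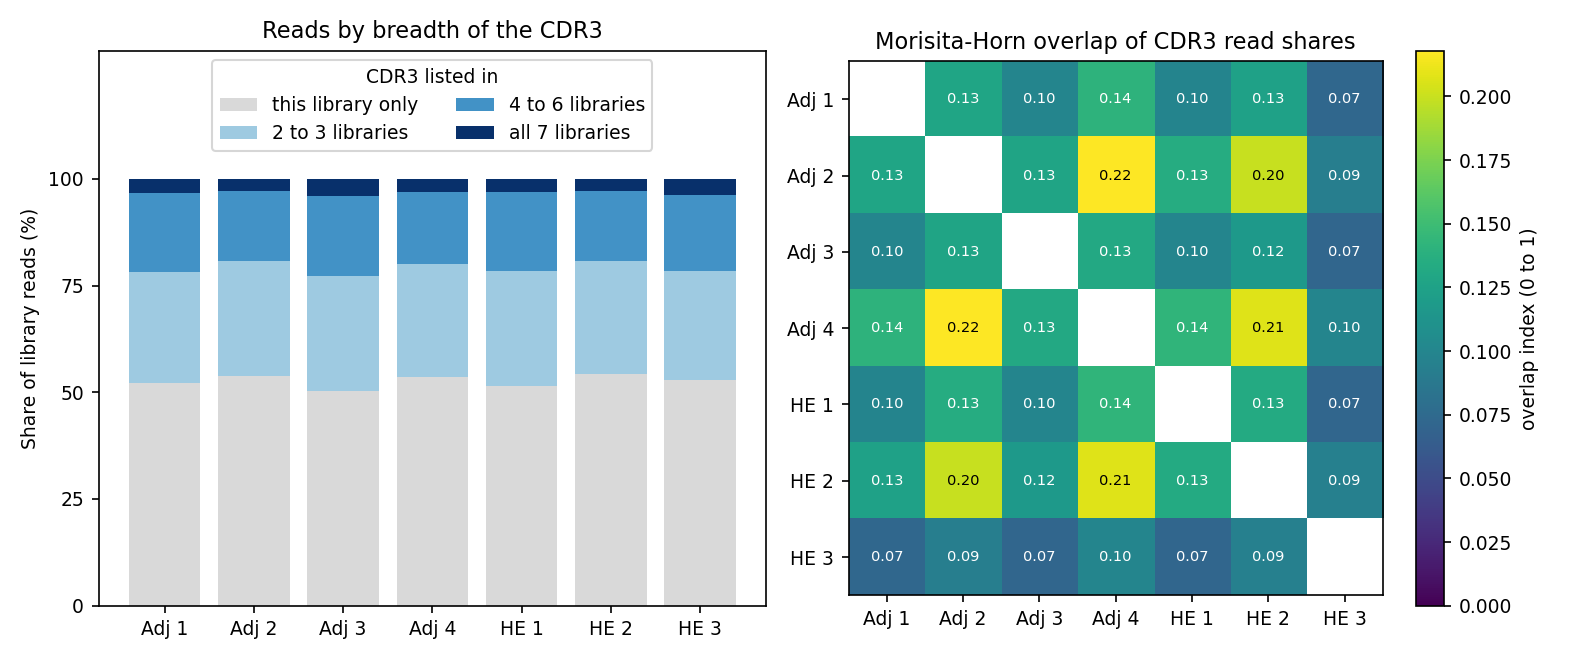
Left, share of each library's reads (%) by the number of the 7 libraries that list the CDR3; reads of CDR3s in a single library make up 50.4% to 54.2% in both groups. Right, Morisita-Horn overlap (0 to 1) of CDR3 read shares for each pair of adjuvant (Adj) and heart extract (HE) libraries, where the highest values join Adj 2, Adj 4 and HE 2 and the lowest involve HE 3.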

How the data were processed

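T cell receptor beta transcripts of sorted CD4+ T cells were measured in 19 libraries, of which 7 were compared here. Per the labels' protocols, a provider amplified total RNA by amplicon-rescued multiplex PCR, pooled 19 libraries by equal mass and read them on a HiSeq. The deposited tables hold unnormalised read counts per CDR3 amino acid sequence, TRBV and TRBJ segment. The sources used here do not give the aligner, the error correction or the genome build, so no coordinates are printed.

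Reads were summed per segment, pair and CDR3 with Python 3.11.15 and pandas 2.3.3, and compared in R 4.3.3 with edgeR 4.0.16 (quasi-likelihood test, robust and legacy options of glmQLFit, library total as offset). A single fit held the 5 groups of the 16 node libraries, and Benjamini-Hochberg adjustment at 0.05 ran over all features of a kind. Pairs needed 1000 reads over the nodes and 3-residue strings 100 distinct CDR3s, with a library's distinct CDR3s as offset. Per-library measures used reads drawn without replacement to 7712663. DESeq2 1.42.0, TMM factors, other filters, the replicate block and leaving out each library were alternatives. Fits were tested on simulated data.

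Named segments, pairs and strings were those past the threshold, or else the 4 with the smallest p, plus the 6 most used TRBV segments. Named CDR3s were the 5 with the smallest p, each library's most abundant, and the sets described. Residues named were the 4 with the smallest p, which gave 5 because of a tie. All members, lists and rules were chosen with earlier results of these data known. The 33 segment names all matched RefSeq symbols of GRCm38.p6.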

Additional observations from a re-analysis of the deposited data

Results flagged for a closer look

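The TRBJ1-1 share of adjuvant node 1 stood far from the other 3 adjuvant nodes. It held 18.1% of reads there, the nearest library held 15.8% and the lowest 15.5%, so that the gap made up 0.86 of the group's whole range, above Dixon's critical value of 0.829 for 4 samples. This was 1 of 47 values of the adjuvant group checked in this way, and chance flags about 1 in 20.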

How the results depend on the processing

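The count of 2 TRBV segments called became 0 with TMM factors, with DESeq2, in a fit of the 7 libraries alone and with distinct entries counted, and it ran from 0 to 2 over libraries left out in turn. Leaving out any of adjuvant nodes 1 and 4 and heart extract node 3 gave 0 calls, and only TRBV5 remained when adjuvant node 3 or heart extract node 2 was left out. The log2 fold changes kept their direction in these settings, from 0.09 to 0.19 (TRBV19) and from -0.19 to -0.04 (TRBV5). DESeq2 called 2 pairs and 12909 CDR3s where edgeR called 0. Counting reads gave 2 of the 3-residue strings, and their count ran from 0 to 2 over libraries left out. The cause was not tested for any of these.

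Same-numbered heart extract and adjuvant nodes correlated by 0.0016, 0.0150 and 0.0180 in their deviations across CDR3s. For other-numbered nodes the correlation ran from -0.0182 to 0.0141. Distinct CDR3s numbered 53871 and 52706 in adjuvant and heart extract node 1, 88872 and 87506 in nodes 2, and 45229 and 38437 in nodes 3. Whether a number marks a shared step was not tested. The main fit and the permutation tests, those of the diversity measures included, took the libraries as unpaired. With the replicate block 1 TRBV segment passed, TRBV5 (adjusted p 0.0414, with 0.0619 for TRBV19), CDR3s with an unadjusted p under 0.05 fell to 1384, and no other call changed.

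With distinct entries counted, TRBV14 turned to -0.11, TRBV4 to 0.024 and TRBJ2-4 to -0.0042 on the log2 scale, and without the fourth residue the glutamine difference turned to 0.109 percentage points. Leaving out single libraries moved the overlap difference between -0.00345 and 0.0296, entropy between -0.0173 and 0.0022, and mean length between -0.0078 and 0.0139 residues. In percentage points the ranges were -0.0175 to 0.0232 for the most abundant CDR3, -0.461 to 0.715 for the 100 most abundant and -0.870 to 6.45 for the 1000 most abundant. They were -0.156 to 0.0343 for CDR3s of 15 or more residues, -0.00065 to 0.0718 for the hydrophobic pair, -0.326 to 0.0703 for the TRBV13 family and -0.0071 to 0.253 for the superantigen-deleted segments. For the TRBD motifs they were -0.0168 to 0.233 for GQG, -0.0424 to 0.106 for DRG, -0.0123 to 0.0812 for GLG and -0.100 to 0.0296 for GTGG. None of these measures passed in any setting. Of 448 values with a library left out, 410 were counted as unchanged. For a count of calls that meant an equal or similar count. For other values it meant no reversed direction and the same side of the threshold. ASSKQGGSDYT and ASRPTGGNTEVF were counted as unchanged even where their log2 fold change fell to 0.

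With 3 and 4 libraries the exact permutation test cannot go below 0.0286, CDR3s present in a single library could not be compared, and 0 listed reads does not separate absence from a single read.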
